A study of Mus musculus with 2 samples.

Results

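The proteasome genes of mouse splenic regulatory T cells were compared between cells with a low and cells with no PPARg reporter signal. All gene symbols beginning with Psma, Psmb, Psmc, Psmd, Psme, Psmf or Psmg and holding 30 or more UMIs (molecular barcodes, which count each captured transcript once) in the raw matrices were taken. Of 50 such symbols, 48 qualified, out of 9394 genes with as many UMIs and 28692 genes listed. The members comprised 14 subunits of the 20S core, 3 immunoproteasome subunits, 22 regulatory genes, 7 assembly chaperones, the Psme2 copy Psme2b and Psmc3ip. Psmc3ip encodes a meiotic recombination factor that shares the prefix but is no proteasome subunit, so sums and counts below are over the other 47 genes. It was also the member nearest to the limit, with 35 raw UMIs, and the next was Psme4 with 106. Psmb11, the thymus subunit, with 5 raw UMIs, and Psma8, the testis alpha subunit, with 2, lay outside.

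Tregs, the regulatory T cells, keep other immune cells in check and are defined among CD4 T cells by the transcription factor Foxp3. Both groups were Tregs sorted from spleens of male B6 Pparg-Tdt.Foxp3-Gfp mice, a double reporter strain, at 8 weeks of age, with 2 or 3 mice pooled. The PPARg-low group and the PPARg-negative group each had 1 droplet-based 3′ library and no treatment was recorded. With no replicates, the groups could not be tested against each other. Ranges in parentheses are 95% intervals and cover counting error only.

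The proteasome degrades proteins tagged with ubiquitin. Its 20S core is a barrel of alpha rings, which form the gate, around beta rings, which hold the catalytic sites. The 19S regulatory particle unfolds the substrate with a ring of ATPases and removes ubiquitin in its lid. In immune cells and after interferon, the catalytic subunits encoded by Psmb5, Psmb6 and Psmb7 can be replaced by those of Psmb8, Psmb9 and Psmb10, which gives the immunoproteasome. Interferon also induces the PA28 activator, encoded by Psme1 and Psme2. Both are best known for producing the peptides shown on MHC class I molecules.

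The PPARg-low library gave 1619 cells and 2901710 UMIs, with a median of 1517 UMIs per cell, and the PPARg-negative library 2633 cells and 5897260 UMIs, with a median of 2171. All 7 Treg markers checked, Foxp3 included, were detected in both libraries and summed to 6292 CPM (UMIs per 1e6 UMIs of the library) in PPARg-low cells and 2651 CPM in PPARg-negative cells. Il2ra was lower in PPARg-low cells, at 169 CPM against 201 CPM in PPARg-negative cells. The other markers were higher in PPARg-low cells, Foxp3 at 34.5 CPM against 24.8 CPM in PPARg-negative cells. Of 19 markers of B, myeloid, NK and CD8 T, erythroid and plasma cells, Ncr1 was at 0 in both libraries, Alas2 in the PPARg-low library, and Csf1r and Jchain in the PPARg-negative library. The myeloid list, the largest of these, summed to 276 CPM in PPARg-low cells and 147 CPM in PPARg-negative cells. Nearly all of it was Cst3, with 268 CPM in PPARg-low cells and 145 CPM in PPARg-negative cells. The erythroid list, the smallest, summed to 7.24 CPM in PPARg-low cells and 1.19 CPM in PPARg-negative cells. The libraries also differed in cells with under 20% of UMIs from ribosomal protein genes, called ribosome-poor here, which were 58.7% of PPARg-low and 23.3% of PPARg-negative cells. Those cells were shallow and rich in mitochondrial UMIs, with medians of 978 UMIs and 6.80% in PPARg-low cells and 853 UMIs and 6.92% in PPARg-negative cells. Proteasome values are therefore also given within ribosome-rich and ribosome-poor cells; the part of this difference in the values over all cells was not tested otherwise. The libraries had 5 barcode sequences in common.

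Proteasome transcripts took a similar part of the RNA in both libraries. The 47 genes held 21455 UMIs in PPARg-low cells, 0.739% of the library (0.730 to 0.749), and 40461 UMIs in PPARg-negative cells, 0.686% (0.679 to 0.693). Their summed CPM ratio, PPARg-low over PPARg-negative, was 1.08 (1.06 to 1.10). Over all 9224 genes with 30 or more UMIs in the kept cells, however, the median ratio was 1.22 (log2 0.29), so that relative to the median gene the proteasome sum was at 0.884. The direction for the whole family thus depends on the scaling.

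A member was called higher or lower by size, if its ratio reached 1.5 (or the inverse of 1.5) and its interval did not cross 1. By this rule 2 of 47 genes were called higher, Psmd2 and Psme4, against 24.2% of all genes tested. One gene, Psmg4, was called lower, against 4.47% of all genes. The median log2 ratio of the 47 genes was 0.15 and the middle of their distribution was narrow, with quartiles at 0.03 and 0.23. Relative to the median gene, the interval of 20 of the 47 lay below 1 and that of 2, Psmd2 and Psme2, above it. The same count was not made over all genes, so it does not set the family apart from other genes.

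**Figure D1:**
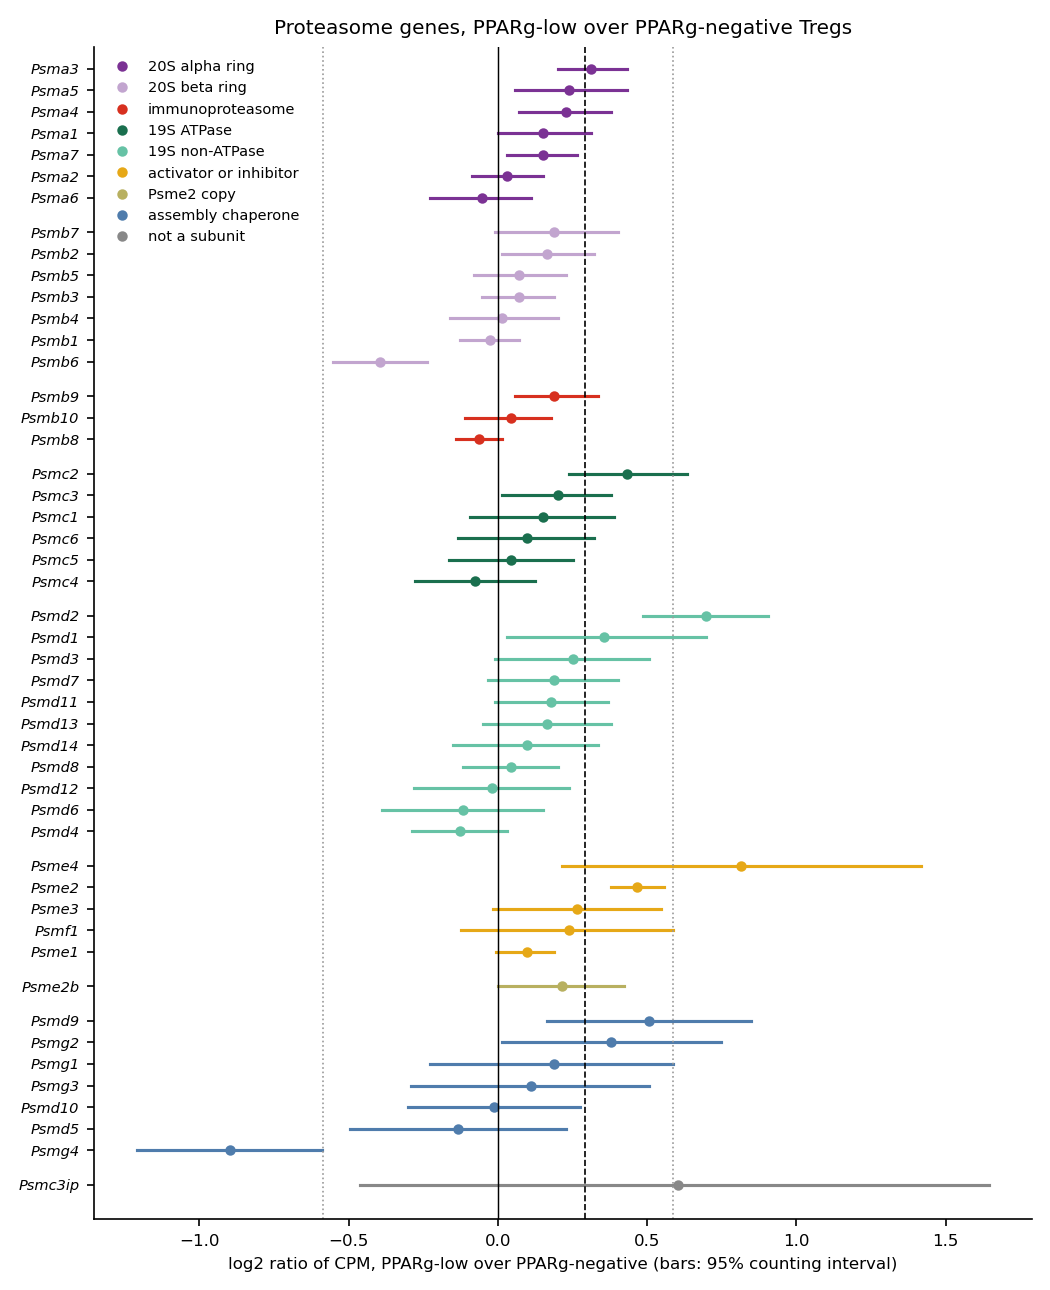
Log2 ratio of CPM, PPARg-low over PPARg-negative, for the 48 members, ordered within each role, with bars for the 95% counting interval and 1 library per group. The solid line marks equal CPM, the dashed line the median of all genes tested (0.29) and the dotted lines a ratio of 1.5 in either direction. Psmg4 and Psmb6 stand to the left of the others and Psme4 and Psmd2 to the right.

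The 14 constitutive 20S core subunits summed to 3086 CPM in PPARg-low cells and 2915 CPM in PPARg-negative cells, a ratio of 1.06 (1.03 to 1.09) that was 0.868 relative to the median gene. None of the 14 was called in either direction. The alpha ring, which gates the barrel, gave 1614 CPM in PPARg-low cells and 1445 CPM in PPARg-negative cells, a ratio of 1.12 (1.08 to 1.16). Its 7 members ran from Psma6, with 414 UMIs in PPARg-low cells, 874 in PPARg-negative cells and a ratio of 0.963 (0.854 to 1.08), to Psma3, with 1017 UMIs in PPARg-low cells, 1662 in PPARg-negative cells and a ratio of 1.24 (1.15 to 1.35). The beta ring gave 1472 CPM in PPARg-low cells and 1469 CPM in PPARg-negative cells, a ratio of 1.0 (0.966 to 1.04). Its members ran from Psmb6 at the bottom to Psmb7 at the top. Psmb1, a structural beta subunit with the most UMIs in the core, had 1195 UMIs in PPARg-low cells and 2472 UMIs in PPARg-negative cells, a ratio of 0.982 (0.916 to 1.05).

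Psmb6, the constitutive subunit with caspase-like activity, had the lowest ratio of the core. It had 445 UMIs (153 CPM) in PPARg-low cells and 1189 UMIs (202 CPM) in PPARg-negative cells, a ratio of 0.761 (0.681 to 0.849), which did not reach the size of a call. As a share of core UMIs, which needs no scaling between libraries, Psmb6 made up 4.97% (4.53 to 5.44) in PPARg-low cells and 6.92% (6.54 to 7.31) in PPARg-negative cells. The share of Psma3 differed the other way, at 11.4% (10.7 to 12.0) in PPARg-low and 9.67% (9.23 to 10.1) in PPARg-negative cells. The other constitutive catalytic subunits, Psmb5 and Psmb7, had higher ratios, with intervals that lay above that of Psmb6. Psmb5, the chymotrypsin-like subunit, had 551 UMIs in PPARg-low cells, 1066 in PPARg-negative cells and a ratio of 1.05 (0.946 to 1.17). Psmb7, the trypsin-like subunit, had 312 UMIs in PPARg-low cells, 554 in PPARg-negative cells and a ratio of 1.14 (0.993 to 1.32). In ribosome-rich cells the Psmb6 share of core UMIs was 5.18% (4.63 to 5.78) in PPARg-low and 7.07% (6.67 to 7.48) in PPARg-negative cells. In ribosome-poor cells it was 4.55% (3.83 to 5.35) in PPARg-low cells and 5.41% (4.33 to 6.65) in PPARg-negative cells, and the intervals overlapped.

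The immunoproteasome was abundant in both libraries, with sums that were equal within counting error. Psmb8, Psmb9 and Psmb10 summed to 1133 CPM in PPARg-low cells and 1131 CPM in PPARg-negative cells, a ratio of 1.0 (0.961 to 1.04), or 0.822 relative to the median gene. Psmb8, the replacement for Psmb5, had the most UMIs of all members, 2040 UMIs (703 CPM) in PPARg-low cells and 4334 UMIs (735 CPM) in PPARg-negative cells, with a ratio of 0.957 (0.907 to 1.01). Psmb9, the replacement for Psmb6, had 674 UMIs (232 CPM) in PPARg-low cells, 1197 UMIs (203 CPM) in PPARg-negative cells and a ratio of 1.14 (1.04 to 1.26). Psmb10, the replacement for Psmb7, had 573 UMIs (197 CPM) in PPARg-low cells, 1136 UMIs (193 CPM) in PPARg-negative cells and a ratio of 1.03 (0.926 to 1.13). None of the 3 was called.

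Set against the subunit it replaces, Psmb8 and Psmb10 supplied most of the pair's UMIs in both libraries, and Psmb9 most in PPARg-low cells and about as many as Psmb6 in PPARg-negative cells. These shares count transcripts; 3′ capture can differ between genes, so they are compared between libraries and not read as protein. Psmb8 made up 78.7% (77.1 to 80.3) of the UMIs of Psmb8 and Psmb5 in PPARg-low cells and 80.3% (79.2 to 81.3) in PPARg-negative cells. Psmb10 made up 64.7% (61.5 to 67.9) of its pair with Psmb7 in PPARg-low cells and 67.2% (64.9 to 69.5) in PPARg-negative cells. For both of these pairs the intervals overlapped. For the pair of Psmb9 and Psmb6 they did not: Psmb9 made up 60.2% (57.3 to 63.1) in PPARg-low cells and 50.2% (48.1 to 52.2) in PPARg-negative cells. The separation was present in ribosome-rich cells, with 57.8% (54.1 to 61.4) in PPARg-low and 48.8% (46.7 to 50.9) in PPARg-negative cells. In ribosome-poor cells the shares were 64.9% (59.9 to 69.6) in PPARg-low cells and 63.2% (56.5 to 69.4) in PPARg-negative cells, and the intervals overlapped. The PPARg-negative share there lay above that of the ribosome-rich PPARg-negative cells, and the cause was not tested. Over the 3 pairs together, the immunosubunits made up 71.5% (70.2 to 72.8) in PPARg-low and 70.4% (69.4 to 71.3) in PPARg-negative cells, a difference of 1.18 percentage points (-0.430 to 2.79).

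**Figure D2:**
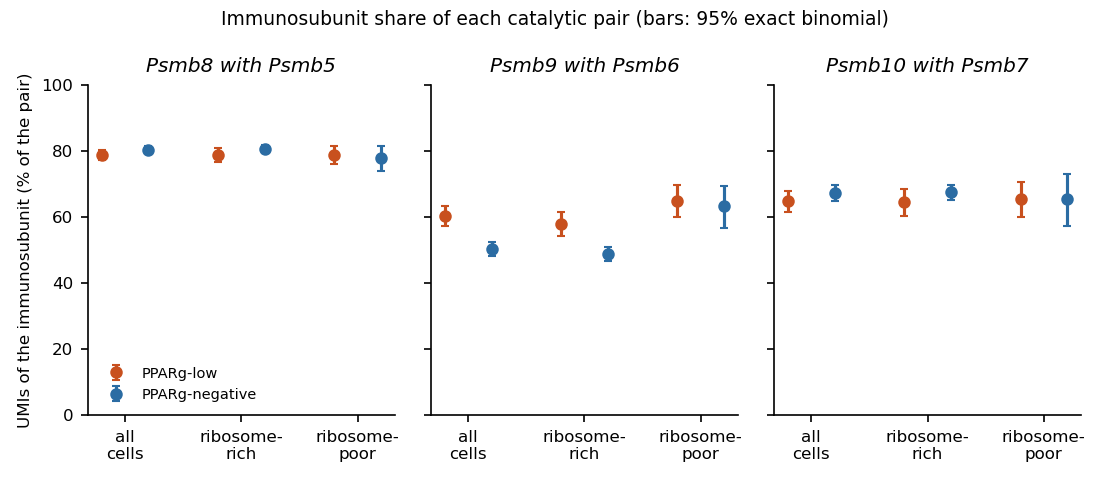
Share of each catalytic pair's UMIs that came from the immunosubunit (%), in PPARg-low (orange) and PPARg-negative (blue) cells, over all cells and within ribosome-rich and ribosome-poor cells. Bars are exact binomial 95% intervals and each point is 1 library; the intervals of the groups are apart only for Psmb9 with Psmb6, over all cells (60.2% PPARg-low, 50.2% PPARg-negative) and in ribosome-rich cells (57.8% PPARg-low, 48.8% PPARg-negative).

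Psmb8 and Psmb9 lie in the MHC class II region of chromosome 17 beside the peptide transporter genes. On the mm10 build, Psmb9 spans chr17:34181987-34187764 on the minus strand and overlaps Tap1, which is on the plus strand. Psmb8 spans chr17:34197721-34201454 on the plus strand. Psmb10 lies on chr8:105935735-105938444 and Psmb6 on chr11:70525367-70527858. The promoter windows of the immunosubunit genes are shown because these genes have a known interferon response. That of Psmb6 is shown because its share of the core was lower in PPARg-low cells. Each is the RefSeq window (GRCm38.p6) of 300 bases, 250 before and 50 after the start site, read 5′ to 3′ on the gene's strand. The windows of Psmb8 and Psmb9 lie wholly inside the gene spans given above. Their RefSeq start sites are thus downstream of the 5′ ends of those spans, and neither window holds a base before that end. Capitals mark any match, on either strand, to 4 short motifs: GAAA repeated after any 2 bases (interferon response element core), TTCNNNGAA (gamma-activated site core), TGACNNNGC (antioxidant response element core) and CCAAT.
Psmb8 (chr17:34197945-34198244, plus strand): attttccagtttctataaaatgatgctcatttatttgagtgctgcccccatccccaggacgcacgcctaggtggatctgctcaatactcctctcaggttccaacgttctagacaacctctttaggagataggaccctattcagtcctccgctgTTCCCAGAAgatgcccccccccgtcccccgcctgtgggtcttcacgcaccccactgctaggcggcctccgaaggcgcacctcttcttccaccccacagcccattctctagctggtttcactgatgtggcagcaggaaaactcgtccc
Psmb9 (chr17:34187281-34187580, minus strand): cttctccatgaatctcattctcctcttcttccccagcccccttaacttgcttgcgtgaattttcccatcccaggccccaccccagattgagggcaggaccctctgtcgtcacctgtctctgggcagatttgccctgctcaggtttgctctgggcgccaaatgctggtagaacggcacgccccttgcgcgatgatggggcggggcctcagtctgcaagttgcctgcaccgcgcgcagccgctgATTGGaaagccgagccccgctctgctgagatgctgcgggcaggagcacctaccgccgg
Psmb10 (chr8:105938343-105938642, minus strand): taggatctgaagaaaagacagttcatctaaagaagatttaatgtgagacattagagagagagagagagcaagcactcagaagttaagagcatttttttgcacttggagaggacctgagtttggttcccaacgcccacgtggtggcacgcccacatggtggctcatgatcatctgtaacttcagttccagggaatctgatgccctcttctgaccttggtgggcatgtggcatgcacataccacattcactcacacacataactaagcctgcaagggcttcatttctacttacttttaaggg
Psmb6 (chr11:70525107-70525406, plus strand): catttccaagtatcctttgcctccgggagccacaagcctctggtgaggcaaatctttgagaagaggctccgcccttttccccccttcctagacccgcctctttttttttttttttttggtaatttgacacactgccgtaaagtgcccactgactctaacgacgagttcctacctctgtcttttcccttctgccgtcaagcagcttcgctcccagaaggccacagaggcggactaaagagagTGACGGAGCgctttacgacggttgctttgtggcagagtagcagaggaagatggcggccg

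In these windows, Psmb8 held 1 gamma-activated site core, which begins 97 bases before the start site and reads the same way on both strands. Psmb9 held 1 reversed CCAAT, beginning 8 bases before the start, and its window overlapped the first 28 bases of Tap1. Psmb6 held 1 antioxidant response element core, beginning 9 bases before the start, and Psmb10 held no match to the 4 motifs. RefSeq windows were found for 41 members (44 windows). The interferon response element core was in 11.4% of the members' windows and 3.44% of all 32851 windows, and the genes with it were Psmb3, Psmd4, Psmd9, Psme1 and Psmg4. The other motifs were about as frequent in the members' windows as in all windows: the antioxidant response element core in 13.6% of members' and 12.4% of all windows, CCAAT in 31.8% of members' and 37.4% of all, and the gamma-activated site core in 6.82% of members' and 8.30% of all. A match is a string of letters, not a measured binding site.

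The 22 regulatory genes summed to 2819 CPM in PPARg-low cells and 2462 CPM in PPARg-negative cells, a ratio of 1.14 (1.11 to 1.18), or 0.939 relative to the median gene. They took 38.1% (37.5 to 38.8) of all proteasome UMIs in PPARg-low cells and 35.9% (35.4 to 36.4) in PPARg-negative cells. The core took 41.7% (41.1 to 42.4) in PPARg-low cells and 42.5% (42.0 to 43.0) in PPARg-negative cells. The immunosubunits took 15.3% (14.8 to 15.8) in PPARg-low cells and 16.5% (16.1 to 16.8) in PPARg-negative cells. These shares need no scaling between libraries: the regulatory share was higher in PPARg-low cells, the immunosubunit share lower, and the intervals of the core share overlapped. In ribosome-poor cells the regulatory share was 39.8% (38.7 to 40.9) in PPARg-low cells and 38.8% (37.3 to 40.3) in PPARg-negative cells, with overlapping intervals.

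The 6 ATPases of the 19S base, which thread the substrate into the core, had a summed ratio of 1.11 (1.05 to 1.17) and none was called. They ran from Psmc4, with 297 UMIs in PPARg-low cells, 636 in PPARg-negative cells and a ratio of 0.949 (0.824 to 1.09), to Psmc2, with 364 UMIs in PPARg-low cells, 546 in PPARg-negative cells and a ratio of 1.35 (1.18 to 1.55). The 11 other 19S subunits had a summed ratio of 1.09 (1.04 to 1.14). The lowest was Psmd4, the ubiquitin receptor of the base, with 478 UMIs in PPARg-low cells, 1062 in PPARg-negative cells and a ratio of 0.915 (0.819 to 1.02). The highest was Psmd2, the large base scaffold, on chr16:20651652-20663414. Psmd2 had 337 UMIs (116 CPM) in PPARg-low cells and 424 UMIs (71.9 CPM) in PPARg-negative cells, a ratio of 1.62 (1.40 to 1.87). Relative to the median gene its ratio was 1.32 (1.14 to 1.53), below the size of a call.

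The alternative caps of the core gave the largest class ratio. Psme1 and Psme2, which encode the alpha and beta chains of PA28, summed to 1017 CPM in PPARg-low cells and 833 CPM in PPARg-negative cells, a ratio of 1.22 (1.17 to 1.28) that equals the median gene's. The chains differed from each other. Psme2 had 1648 UMIs (568 CPM) in PPARg-low cells and 2428 UMIs (412 CPM) in PPARg-negative cells, a ratio of 1.38 (1.30 to 1.47). Psme1 had 1302 UMIs (449 CPM) in PPARg-low cells and 2483 UMIs (421 CPM) in PPARg-negative cells, a ratio of 1.07 (0.996 to 1.14). Relative to the median gene, Psme2 was above it at 1.13 (1.06 to 1.20) and Psme1 below it at 0.874 (0.817 to 0.935). The Psme2 counts are uncertain because Psme2b on chromosome 11 is a near-identical copy, which also overlaps Gm12185 and 9930111J21Rik1 on its own strand. With Psme2b added, the ratio was 1.34 (1.27 to 1.42). Psme3, the nuclear PA28 gamma, had a ratio of 1.20 (0.989 to 1.46) and Psmf1, which encodes the inhibitor PI31, one of 1.18 (0.918 to 1.5). Psme4, which encodes the activator PA200, had the highest ratio of all members on few counts, with 46 UMIs in PPARg-low cells and 53 UMIs in PPARg-negative cells, at 1.76 (1.16 to 2.67). Relative to the median gene the interval of Psme4 reached 1, at 1.45 (0.953 to 2.19).

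The 7 assembly chaperones held few UMIs, 747 in PPARg-low cells and 1579 in PPARg-negative cells, with a summed ratio of 0.961 (0.880 to 1.05). Their ratios were spread more widely than those of the subunits. Psmg4, a chaperone of alpha ring assembly on chr13:34162964-34178173, had 110 UMIs (37.9 CPM) in PPARg-low cells and 416 UMIs (70.5 CPM) in PPARg-negative cells. Its ratio of 0.537 (0.432 to 0.665) was the lowest of the 47, and it was 0.441 (0.354 to 0.545) relative to the median gene. Psmg3, the partner of Psmg4, had a ratio of 1.08 (0.818 to 1.42). Psmg1 and Psmg2, which form the other alpha ring chaperone pair, had ratios of 1.14 (0.854 to 1.5) and 1.30 (1.01 to 1.68). Of the chaperones of the 19S base, Psmd9 was highest, with 122 UMIs in PPARg-low cells, 175 in PPARg-negative cells and a ratio of 1.42 (1.12 to 1.80). Psmd5 was lowest of these at 0.912 (0.709 to 1.17).

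Within ribosome-rich cells (668 PPARg-low and 2019 PPARg-negative) the summed ratio of the 47 genes was 1.13 (1.11 to 1.15), closer to the median gene's than over all cells. The core ratio was 1.14 (1.11 to 1.17), the immunoproteasome ratio 1.04 (0.994 to 1.10) and the regulatory ratio 1.18 (1.14 to 1.22), where the median over 8564 genes was 1.17. There, 4 of 47 genes were called higher, against 17.2% of all genes, and 1 lower, against 3.92%. Those called higher were the ATPase Psmc2 at 1.57 (1.34 to 1.83), Psmd2 at 1.66 (1.39 to 1.98), Psme4 at 1.70 (1.01 to 2.80) and Psmd9 at 1.60 (1.20 to 2.12). Psmg4 was again called lower, with 66 UMIs in PPARg-low cells, 388 in PPARg-negative cells and a ratio of 0.510 (0.387 to 0.664).

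Within ribosome-poor cells (951 PPARg-low and 614 PPARg-negative) the core ratio was 1.10 (1.04 to 1.17), the immunoproteasome ratio 1.08 (0.980 to 1.19) and the regulatory ratio 1.14 (1.07 to 1.21), where the median over 6540 genes was 1.02. Of the 46 members with enough UMIs there, 2 were called higher, against 6.82% of all genes. They were the alpha subunit Psma7, with 287 UMIs in PPARg-low cells, 101 in PPARg-negative cells and a ratio of 1.62 (1.28 to 2.05), and Psmd1, a base scaffold, with 58 UMIs in PPARg-low cells, 19 in PPARg-negative cells and a ratio of 1.73 (1.02 to 3.09). None was called lower, against 5.40%. Psme2 had ratios of 1.40 (1.30 to 1.51) in ribosome-rich and 1.43 (1.23 to 1.66) in ribosome-poor cells, near its value over all cells. Psmg4 and Psmd2 were not called in ribosome-poor cells, at 0.893 (0.544 to 1.49) and 1.18 (0.875 to 1.60). Both intervals overlapped those over all cells, so whether their ratios differ in ribosome-poor cells is not resolved.

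Between these states of the same library, the proteasome sum was lower in ribosome-poor cells and the median gene higher. Ribosome-poor over ribosome-rich cells, the 47 genes had a summed CPM ratio of 0.843 (0.819 to 0.867) in the PPARg-low and 0.861 (0.833 to 0.890) in the PPARg-negative library. The median gene was at 1.24 in the PPARg-low and 1.42 in the PPARg-negative library. The states were cut by ribosomal UMIs, which are part of the CPM total, so fewer of them raise the CPM of other genes. The median gene's rise and the calls below therefore cannot be read apart from the cut. Relative to the median gene, the proteasome sum was at 0.680 in the PPARg-low and 0.607 in the PPARg-negative library. In the PPARg-low library, 1 of the 47 was called higher, against 27.8% of all genes, and 3 lower, against 8.32%. In the PPARg-negative library, 2 were called higher, against 36.8%, and 6 lower, against 6.51%. Psmb1, Psma7 and the lid subunit Psmd8 were called lower in both libraries. Psma7, for example, had a ratio of 0.646 (0.561 to 0.743) in the PPARg-low and 0.487 (0.394 to 0.595) in the PPARg-negative library. Psmg2 was called higher in both, at 2.25 (1.49 to 3.43) in the PPARg-low and 1.63 (1.04 to 2.49) in the PPARg-negative library. Class I antigen processing genes were called higher in ribosome-poor cells for 12 of 12 genes in each library.

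Nearly all cells held proteasome transcripts at equal depth. With each cell thinned to 750 UMIs, PPARg-low cells held a mean of 5.25 proteasome UMIs and PPARg-negative cells 5.03, with a median of 5 in both. The variance was 1.35 times the mean in PPARg-low and 1.32 times in PPARg-negative cells, where Poisson counting gives 1, and no proteasome UMI was found in 1.01% of PPARg-low cells and 1.13% of PPARg-negative cells. Thinning left out 238 PPARg-low and 239 PPARg-negative cells that were too shallow. Regulatory UMIs averaged 2.02 per PPARg-low cell and 1.77 per PPARg-negative cell, core UMIs 2.15 per PPARg-low and 2.14 per PPARg-negative cell, and immunoproteasome UMIs 0.818 per PPARg-low and 0.860 per PPARg-negative cell.

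**Figure D3:**
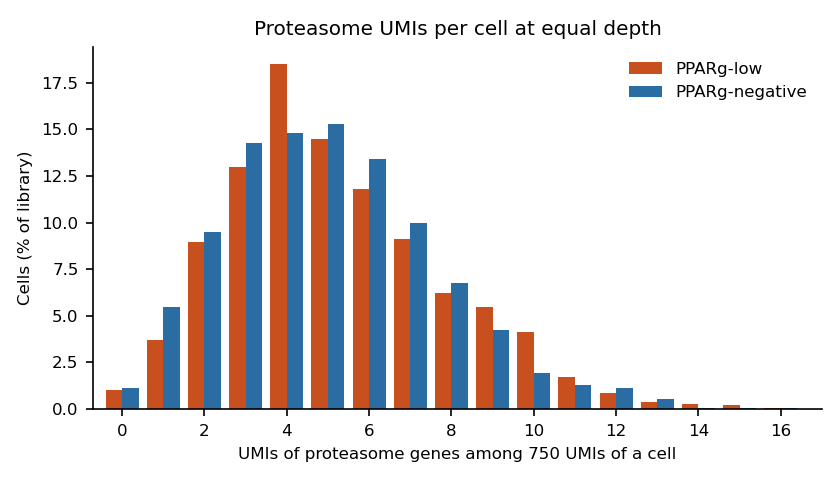
Share of cells (% of library) by the number of proteasome UMIs among 750 UMIs per cell, for 1381 PPARg-low cells (orange, left bars) and 2394 PPARg-negative cells (blue, right bars). Both libraries have 1 peak, near 4 to 5 UMIs, and about 1% of cells at 0.

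Single genes were also counted by the cells that held them. Psme2 had a UMI in 31.6% (29.2 to 34.2) of PPARg-low cells and 24.5% (22.8 to 26.3) of PPARg-negative cells at equal depth, and unthinned in 51.1% of PPARg-low and 52.4% of PPARg-negative cells. Psmb6 had one in 10.1% (8.53 to 11.8) of PPARg-low cells and 14.1% (12.7 to 15.5) of PPARg-negative cells, and unthinned in 22.1% of PPARg-low and 34.5% of PPARg-negative cells. Psmb8 had one in 39.3% (36.7 to 42.0) of PPARg-low cells and 42.9% (40.9 to 44.9) of PPARg-negative cells, and unthinned in 58.9% of PPARg-low and 71.8% of PPARg-negative cells. No cell type known to lack these genes was at hand to give the level of free RNA.

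The cells were clustered without the proteasome genes, into 10 clusters, and the proteasome levels were then read in each; these are descriptions, and cluster sizes were not compared. In all, 6 clusters held 20 or more cells of both libraries. For each of the classes and single genes examined, the PPARg-low and PPARg-negative intervals overlapped in 6 of 6 clusters. PA28 differed between clusters. It was at 1236 CPM (1167 to 1307) in PPARg-low cells and 1360 CPM (1135 to 1616) in PPARg-negative cells of the cluster led by Il10, Ccl4 and Il1r2, which held 532 PPARg-low and 55 PPARg-negative cells. It was at 764 CPM (722 to 808) in the resting Treg-like cluster, led by Dapl1 and Ly6c1, which held 11 PPARg-low and 706 PPARg-negative cells. Psme2 was at 361 CPM (265 to 482) in PPARg-low cells and 345 CPM (308 to 385) in PPARg-negative cells of the Ssbp2 cluster, and at 713 CPM (661 to 768) in PPARg-low cells and 759 CPM (594 to 956) in PPARg-negative cells of the Il10 cluster. Psmd2 was at 52.2 CPM (41.5 to 64.7) in the resting Treg-like cluster, and at 123 CPM (102 to 147) in PPARg-low cells and 158 CPM (88.5 to 261) in PPARg-negative cells of the Il10 cluster. The median share of ribosomal UMIs per cell was 12.0% in the Il10 cluster, 27.7% in the Ssbp2 cluster and 40.0% in the resting Treg-like cluster. These UMIs are part of the CPM total, so the CPM differences between clusters cannot be read apart from them.

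The direction was the same in 5 of 6 shared clusters for some genes and classes, always with overlapping intervals. Psmb6 was lower in PPARg-low than in PPARg-negative cells in 5 of 6 shared clusters, for example 142 CPM (116 to 172) in PPARg-low cells and 249 CPM (145 to 398) in PPARg-negative cells of the Trf and Fos cluster. Psmg4 was also lower in 5 of 6, for example 35.7 CPM (24.8 to 49.6, 35 UMIs) in PPARg-low cells and 94.9 CPM (43.4 to 180.1, 9 UMIs) in PPARg-negative cells of the Il10 cluster. The beta ring, immunoproteasome and assembly chaperone sums were likewise lower in PPARg-low cells in 5 of 6, and the sum of the 19S ATPases was higher in 5 of 6. Some of these differences were minimal. The immunoproteasome was at 1261 CPM in PPARg-low and 1264 CPM in PPARg-negative cells of the Ccr2 cluster. In the Gsta4 cluster it was at 1136 CPM in PPARg-low and 1138 CPM in PPARg-negative cells. Such directions were not counted over all genes. Over the groups of 20 or more cells from 1 library in a cluster, the core sum ran from 2711 CPM (2432 to 3013) in PPARg-low cells of the Ssbp2 cluster to 3510 CPM (3143 to 3908) in PPARg-negative cells of the Il10 cluster, and these intervals did not overlap. The ribosomal shares of these clusters, given above, differ as well.

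**Figure D4:**
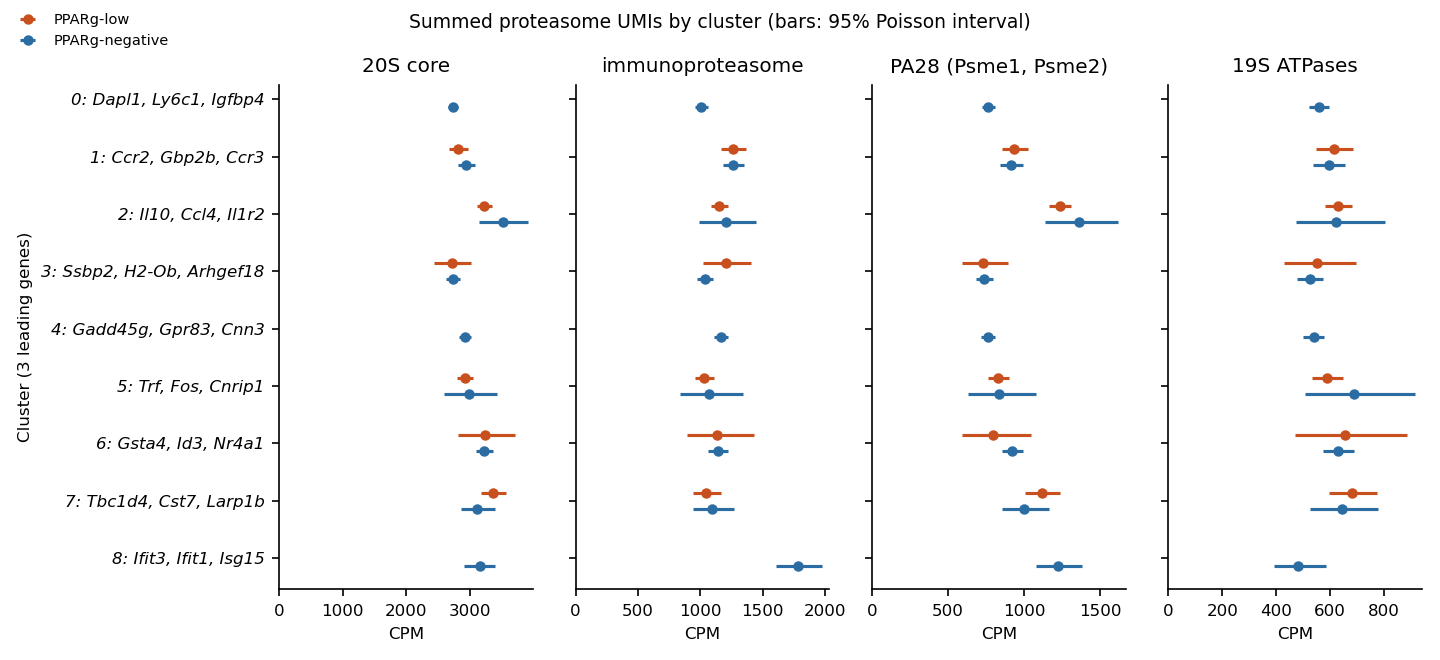
Summed CPM of the 20S core, the immunoproteasome, PA28 and the 19S ATPases in each cluster, for PPARg-low (orange) and PPARg-negative (blue) cells, with 95% Poisson intervals; points with fewer than 20 cells are left out. The 2 colours overlap wherever both are drawn, PA28 is high in the Il10 cluster and the immunoproteasome is high in the interferon cluster. The CPM total includes ribosomal UMIs, whose share differs between clusters.

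Among the clusters, the immunoproteasome sum was highest in the one led by interferon genes. This cluster, with Ifit3, Ifit1 and Isg15 in front, held 85 PPARg-negative cells and 2 PPARg-low cells, so it was compared with the other 2548 PPARg-negative cells only. Immunosubunits summed to 1784 CPM in the interferon cluster and 1106 CPM in the other cells, a ratio of 1.61 (1.45 to 1.79). PA28 gave 1222 CPM in the cluster, 818 CPM in the other cells and a ratio of 1.49 (1.31 to 1.69). The beta ring was at 0.95 (0.843 to 1.07) and the 19S ATPases at 0.842 (0.684 to 1.03), while the alpha ring was at 1.22 (1.10 to 1.35). The median gene was at 0.955.

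In the interferon cluster, 4 of 47 genes were called higher, against 2.02% of all genes. Psmb10 had 79 UMIs (376 CPM) in the cluster and 1057 UMIs (186 CPM) in the other cells, a ratio of 2.02 (1.59 to 2.54). Psmb9 had a ratio of 1.94 (1.52 to 2.43), Psme2 of 1.64 (1.37 to 1.95) and its copy Psme2b of 1.77 (1.19 to 2.55). Psmb8 and Psme1 lay below the size of a call, at 1.42 (1.23 to 1.63) and 1.35 (1.11 to 1.62). By contrast the constitutive partners Psmb5, Psmb6 and Psmb7 had ratios of 1.0 (0.703 to 1.38), 0.990 (0.710 to 1.35) and 1.07 (0.654 to 1.65). Those called lower, against 2.39%, were 3 genes on 1 to 8 UMIs in the cluster: Psmg3 at 0.175 (0.00439 to 0.987), Psmd5 at 0.255 (0.0307 to 0.933) and Psmc6 at 0.464 (0.199 to 0.923). Psme4 had 0 UMIs there and no fold is given. The immunosubunits thereby made up 78.8% (74.8 to 82.4) of the 3 pairs in the interferon cluster and 69.9% (69.0 to 70.9) in the other cells.

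The pattern was also read in cells picked by UMI counts rather than by cluster, those with 5 or more UMIs of 22 interferon genes at equal depth. Between the libraries, over all cells, 1 of these 22 genes was called higher, against 24.2% of all genes, and 4 lower, against 4.47%. The picked cells were 129 PPARg-negative cells, of which 29 were in the interferon cluster, and 59 of them lay at the limit of 5 UMIs, with 114 more cells just below it at 4. Over the other 2265 cells, the immunoproteasome ratio was 1.46 (1.32 to 1.61), the PA28 ratio 1.31 (1.15 to 1.47) and the core ratio 1.04 (0.972 to 1.12). In that comparison 3 genes were called higher, Psmb9, Psmb10 and Psme2b, against 4.38% of all genes, and 1 lower, Psmc6, against 0.918%.

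Cycling cells showed another composition. Between the libraries, over all cells, 17 of 19 cell cycle genes were called higher, against 24.2% of all genes. In ribosome-poor cells, of the 16 with enough UMIs, 3 were called higher, against 6.82%, and 5 lower, against 5.40%. The cluster led by cell cycle genes (2810417H13Rik, Ccna2, Top2a) held 25 cells, 15 PPARg-low and 10 PPARg-negative, with a median of 4465 UMIs. It was set against the other 4227 cells of both libraries, so its makeup by library is part of the comparison. Core genes were at 3938 CPM in the cycling cluster and 2953 CPM in the other cells, a ratio of 1.33 (1.23 to 1.44). The 19S ATPases were at 1.58 (1.33 to 1.86) and the other 19S subunits at 1.5 (1.31 to 1.70), where the median gene was at 1.21. The immunoproteasome and PA28 were at 1.10 (0.947 to 1.26) and 1.12 (0.953 to 1.31).

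In the cycling cluster, 14 of 47 genes were called higher, against 11.1% of all genes, and none lower, against 3.72%. Of the 14, 8 encode 19S subunits, 4 core subunits, 1 an assembly chaperone and 1 an immunosubunit. The base scaffold Psmd1 had 19 UMIs (119 CPM) in the cycling cluster and 296 UMIs (34.3 CPM) in the other cells, a ratio of 3.47 (2.06 to 5.51). The lid subunit Psmd13 had 39 UMIs in the cluster, 731 in the other cells and a ratio of 2.88 (2.03 to 3.98). Psmc1, an ATPase, was at 2.83 (1.90 to 4.06), the chaperone Psmg1 at 3.03 (1.54 to 5.40), the alpha subunit Psma5 at 2.45 (1.76 to 3.32), and Psmd14, the deubiquitinase of the lid, at 2.43 (1.59 to 3.57). Psmb9 was the called immunosubunit, at 1.64 (1.23 to 2.14), while Psmb8 was at 0.983 (0.810 to 1.18). In 41 cells picked by 3 or more cell cycle UMIs at equal depth, the core ratio was 1.26 (1.17 to 1.36) and the regulatory ratio 1.29 (1.20 to 1.40). There, too, 14 genes were called higher, against 11.1% of all genes, and none lower, against 3.69%.

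**Figure D5:**
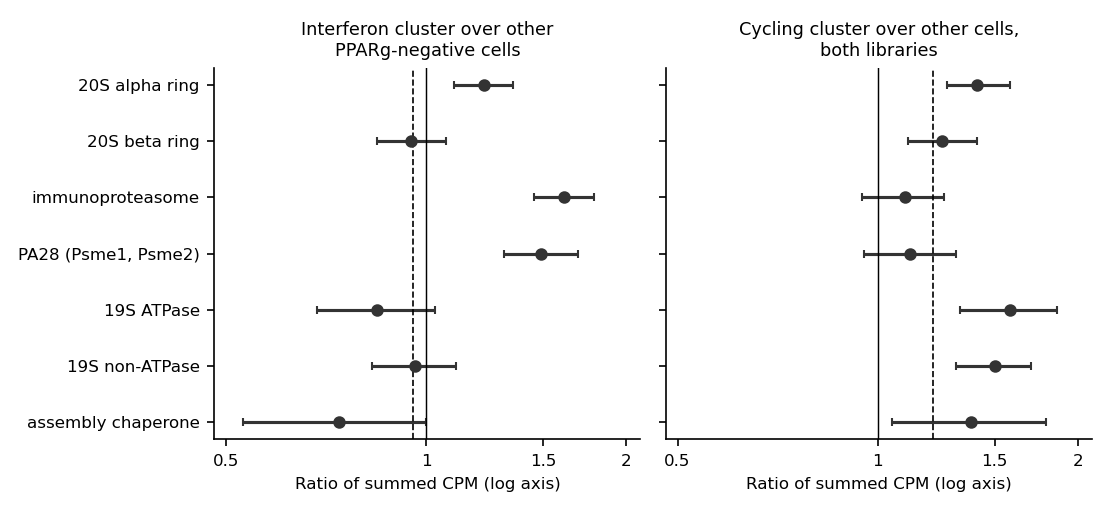
Ratio of summed CPM (log axis) by proteasome class, with 95% counting intervals, for the interferon cluster over the other PPARg-negative cells (left) and for the cycling cluster over the other cells of both libraries (right). Dashed lines mark the median gene; the immunoproteasome (1.61) and PA28 (1.49) lead on the left and the 19S classes (1.58 and 1.5) on the right.

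Genes that work with the proteasome but lack its prefix were counted from fixed lists. Of 11 proteasome partners, such as the maturation factor Pomp and the deubiquitinase Usp14, none was called in either direction over all cells, and their median log2 ratio was 0.19, against 0.29 for all genes. The extremes were Uchl5, another deubiquitinase, at 0.927 (0.741 to 1.16) and Usp14 at 1.40 (1.13 to 1.73). Pomp, with 758 UMIs in PPARg-low cells and 1491 in PPARg-negative cells, was at 1.03 (0.945 to 1.13).

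Of 17 ubiquitin and shuttle genes, 2 were called higher over all cells, against 24.2% of all genes. Vcp, the segregase that delivers substrates, was at 1.62 (1.48 to 1.78). Nfe2l1, which encodes a transcription factor known to drive proteasome genes, had 65 UMIs in PPARg-low cells, 81 in PPARg-negative cells and a ratio of 1.63 (1.16 to 2.29). None of the 17 was called within ribosome-rich cells, where 17.2% of all genes were called higher and 3.92% lower.

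Class I antigen processing genes, the users of immunoproteasome peptides, had a median log2 ratio of 0.73, and 9 of 12 were called higher over all cells, against 24.2% of all genes. The peptide transporter gene Tap1, which shares its promoter region with Psmb9, had 852 UMIs (294 CPM) in PPARg-low cells and 888 UMIs (151 CPM) in PPARg-negative cells, a ratio of 1.95 (1.77 to 2.14), against 1.14 for Psmb9. The other 8 called were Canx at 1.84 (1.61 to 2.1), Calr at 1.79, Erap1 at 1.73, H2-K1 at 1.72, Tapbp at 1.67, H2-D1 at 1.64, Tap2 at 1.63 and B2m at 1.57 (1.54 to 1.59). The lowest was Nlrc5, at 1.09 (0.840 to 1.41). In ribosome-rich cells 2 of the 12 were called higher, against 17.2% of all genes, and in ribosome-poor cells none, against 6.82%.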

How the data were processed

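The authors deposited raw counts, 1 matrix of genes by cell barcodes for each library, with unnormalized UMIs as values. The submitters' processing notes name Cell Ranger 2.1.0 and mm10; the gene annotation they counted on is not given in the sources used here. In the second group the label says low and the tag in the file names says pos, and the label was followed. Mice were pooled and are not told apart, which leaves 1 library for each group. Strand handling in the counting is not stated, so members that overlap an antisense gene, such as Psmb9 with Tap1, are uncertain by that much.

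Cells with over 10% mitochondrial UMIs (373 PPARg-low, 269 PPARg-negative) were left out, and all kept cells had 200 or more genes. Scrublet in scanpy 1.11.5 marked 11 PPARg-low (0.679%) and 8 PPARg-negative (0.304%) cells as doublets, so unmarked doublets remain possible; marked cells were kept. UMIs were summed per library and given as CPM. Ratios had exact conditional binomial intervals, shares exact binomial (Clopper-Pearson) intervals and CPM levels exact Poisson intervals. A gene at 0 entered at 3 counts. No p-value was computed. The interval was tested on simulated data. Clustering used counts scaled to 10000 per cell and logged, 2000 variable genes with proteasome genes kept out, 20 components, 15 neighbours and Leiden (leidenalg 0.10.2, resolution 1.0). A cluster took a name if at least 3 listed markers stood among its top 10 genes. Coordinates came from GENCODE M21 (mm10).

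The members, lists, the ribosomal limit of 20% and the alternatives were chosen with earlier results of these data known, and cells picked by interferon or cell cycle UMIs, and calls within ribosome-rich and ribosome-poor cells, were added after seeing the data. Genes given in full were the catalytic subunits and their replacements, Psme1 and Psme2, the extremes of each role, the called members and the 3 with most UMIs; others named in clusters and states, and the examples of partner genes, were picked with their values in view. The settings varied were the cell filters, doublets, scaling, cell weight, thinning, the UMI minimum and the size of a call. Scripts ran in Python 3.11.15 with scipy 1.17.1, numpy 2.4.6, matplotlib 3.10.9 and pandas 2.3.3. Values of some genes on the lists are not reported here.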

Additional observations from a re-analysis of the deposited data

Results flagged for a closer look

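Psmb11, which encodes the catalytic subunit of the thymoproteasome of thymic cortex, lay outside the members because of its low counts, and was singled out because it held 5 raw UMIs over both libraries, above the 3 counts that a count of 0 allows. Of these, 3 were in the PPARg-low library and 2 in the PPARg-negative library.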

How the results depend on the processing

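The summed ratios over all cells depended on the scaling and on the cells. The core ratio of 1.06 became 1.13 with at most 5% mitochondrial UMIs per cell, 0.886 when scaled without ribosomal and mitochondrial genes, 0.868 relative to the median gene, 0.989 with each cell weighted equally and 1.01 at 750 UMIs per cell. The immunoproteasome ratio of 1.0 became 1.09, 0.838, 0.822, 0.940 and 0.95 under these 5 alternatives, and the regulatory ratio of 1.14 became 1.20, 0.958, 0.939 and 1.07 under the first 4. Members called higher, 2 over all cells, numbered 0 without ribosomal and mitochondrial genes in the scaling and 0 relative to the median gene, 7 with a smaller size of call, and 4 in ribosome-rich cells. Members called lower, 1 over all cells, numbered 2 under each of those scalings and with the smaller size of call, with Psmb6 added, and 0 in ribosome-poor cells. The cause of these shifts was not tested. At 750 UMIs per cell 2 genes were called higher, of which 1 was shared with the count over all cells. The share of all genes called was not computed under the other scalings, the smaller size of call or thinning. The counts of called members in those settings therefore cannot be set against other genes. The immunosubunit share differed by 0.827 to 1.71 percentage points under its alternatives. Of the values within states and clusters, 18 stayed within their interval and 1 did not, the regulatory ratio in ribosome-rich cells at 1.14 with the limit at 25% ribosomal UMIs. No paired analysis was possible because each group had 1 library. Small counts leave wide intervals: Psme4, with 46 UMIs in PPARg-low cells, was at 1.76 (1.16 to 2.67).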
